A study of Bos taurus with 57 samples.

Results

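The 50 genes described here took the most reads in the testes of bull calves among the genes that were far higher there than in the arcuate nucleus and the anterior pituitary. They were chosen from 24616 Ensembl genes in the high plane libraries. A gene qualified where its testes mean, in reads per 1000000 library reads (CPM) with 0.5 added, was at least 8 times its mean with 0.5 added in both other tissues. That condition was met by 333 genes, and the 50 with the highest testes mean were kept, so that 283 further genes lay below them. One gene was left out by name, and it reached only 1.93 times the pituitary and 1.19 times the arcuate nucleus. Each gene is called here by its place from 1 to 50 in that order. The choice rested on levels in the high plane libraries of all 3 tissues, so those levels are given as a description only.

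RNA from the arcuate nucleus, the anterior pituitary and the testes of Holstein Friesian bull calves was sequenced as 57 single-end mRNA libraries. Calves were on a high plane of nutrition, growing at 1.08 kg/day by the sample descriptions, or on a low plane, growing at 0.5 kg/day, and the series text gives a larger figure for the high plane. Both diets were milk replacer with concentrate, in different amounts, and age at slaughter averaged 126 days. The testes gave 10 high plane and 8 low plane libraries, the anterior pituitary 9 and 10, and the arcuate nucleus 10 and 10. The labels do not tie libraries to calves, and each library is named by the code in its title, such as B42. Testes libraries held 8586953 to 26067610 reads on genes, with a median of 18655866 on the high and 14180871 on the low plane, and all 57 libraries held 898979 to 32009433.

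Testes parenchyma holds seminiferous tubules, with Sertoli cells that nurse the germ cells, and between them Leydig cells that make androgens from cholesterol. In a young bull the tubules are still growing and germ cells are entering meiosis, so that the cell makeup of the tissue shifts with development. The arcuate nucleus of the hypothalamus and the anterior pituitary regulate the testes from afar, through releasing hormone and gonadotropins. The deposited counts carry Ensembl identifiers without symbols, and 0 of them could be matched to a symbol in the RefSeq gene table used, so the genes are not assigned to cell types or functions, and the tissue labels could not be checked against marker genes. Gene lengths were likewise not matched, so a level in CPM is a share of reads and does not rank genes by transcript number.

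Several libraries stood apart and bear on the values below. Testes library B42, of the high plane, was the lowest of its 10 libraries for 30 of the 50 genes. Its library score, the mean log2 CPM of 200 other genes picked from variation within the other 2 tissues, was -0.70, whereas the other 9 high plane testes libraries scored 4.10 to 4.93. Of the 8 low plane testes libraries, B50, B31 and B7 scored 4.50 to 4.76 and the other 5 (B2, B15, B20, B21 and B26) scored -1.17 to 1.45. Low scores were not confined to the testes, and the libraries of the other 2 tissues that had them are named below. Arcuate nucleus library C44, of the high plane, was the highest of the 20 arcuate libraries for 48 of the 50 genes. How often B42 and C44 were the extreme library over all genes was not counted. Arcuate nucleus library C22 was the shallowest of all, at 898979 reads. One high plane testes library carries the code A48 in its title and another code in its file header, and its share of reads on the 50 genes, 5.61%, lay within the range of the other testes libraries.

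The 50 genes took 6.06% ± 0.964 (SD, n = 10) of the reads in high plane testes and 4.15% ± 1.04 (SD, n = 8) in low plane testes. On the high plane the share was 4.07% in B42, 5.27% in B54, 5.48% in B30, 5.61% in A48, 6.35% in B5, 6.42% in B49 and in B17, 6.73% in B32, 6.83% in B38 and 7.41% in B12. On the low plane it was 2.94% in B21, 3.11% in B2, 3.40% in B20, 4.15% in B7, 4.17% in B26, 4.56% in B15, 4.76% in B50 and 6.13% in B31. The diets overlapped, since B42 lay among the low plane libraries and B31 among the high plane ones. The high plane mean without B42 was 6.28% ± 0.703 (SD, n = 9). Without B31 the low plane mean was 3.87% ± 0.719 (SD, n = 7). The spread between libraries was far wider than the counting error, as in B42, whose share had a 95% Wilson interval of 4.06% to 4.08% that covers counting error only. No test was made of the share, because the genes were chosen on high plane levels and a high plane mean is favoured by that choice.

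**Figure D1:**
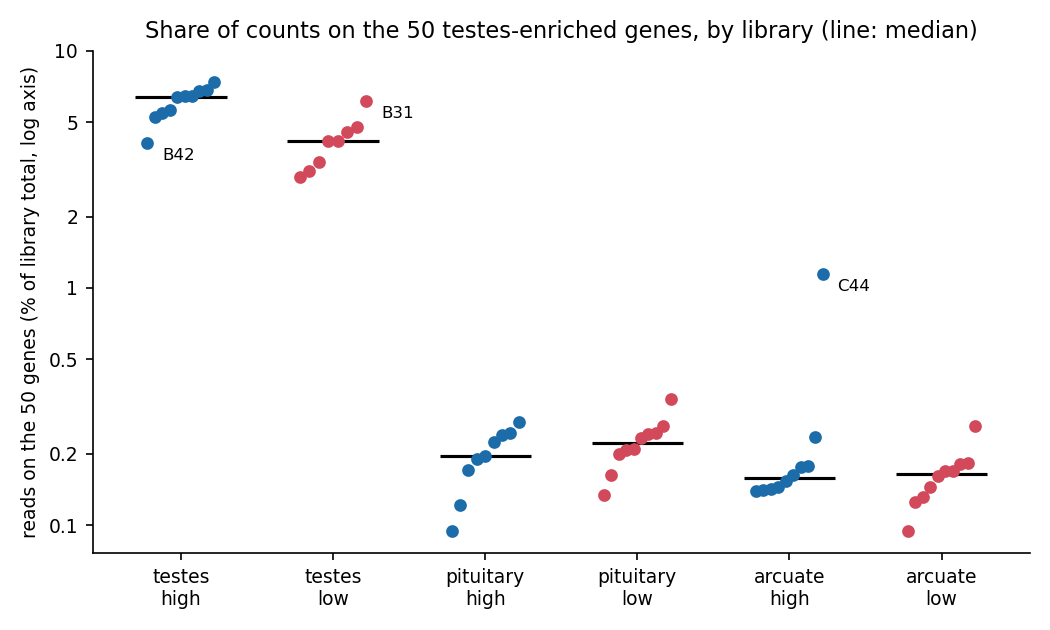
Reads on the 50 genes as a percentage of all reads on genes, on a log axis, with 1 point for each library and a line at the median of each tissue and diet. Testes libraries lie between 2.94% and 7.41%, with B42 at the foot of the high plane and B31 at the head of the low plane, and C44 at 1.14% stands above all other arcuate libraries.

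The share differed with the library score as well as with the diet. The 9 high plane libraries with a score above 4 had shares of 5.27% to 7.41% (median 6.42%), and the 3 low plane libraries above 4 had 4.15% to 6.13% (median 4.76%). The 5 low plane libraries below 2 had 2.94% to 4.56% (median 3.40%), against 4.07% in B42, the single high plane library below 2. Scores were thus unequally spread over the diets, and the part of the score in the diet difference was not tested. Libraries of low score also occurred in the anterior pituitary (A57, A51, A18, A10 and A47) and the arcuate nucleus (C6 and C33). At place 9 those of the pituitary held 3.05 to 11.4 CPM, and the other pituitary libraries 84.8 CPM or more. C6 and C33 held 2.19 and 5.09 CPM there, and the other arcuate libraries 42.3 CPM or more. Not all of the 50 genes were low in them. At place 2, A51 and A47 were the highest pituitary libraries of their diets, at 303 and 298 CPM. What set such libraries apart was not tested. In bulk tissue, fewer cells of a type and less RNA of these genes per cell cannot be told apart.

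A few genes carried much of this share. The genes at places 1 to 3 took 30.02% of the reads of the 50 genes on the high plane and 28.5% on the low plane, and places 1 to 10 took 51.8% and 48.2%. Place 1, ENSBTAG00000010899, had a testes mean of 6456 CPM on the high plane and ranked 4 among all genes there. Place 2 had 5952 CPM and place 3, ENSBTAG00000025775, had 5710 CPM. Levels then fell from 3160 CPM at place 4 to 1391 CPM at place 10. At the end of the list, place 49 had 326.9 CPM and place 50 had 321.9 CPM, and the 3 qualifying genes next below had 313.8, 309.4 and 266.5 CPM. The fold condition was as close, with the smaller of the tissue folds at 8.13 for place 18 and 8.15 for place 16, while the nearest genes of like abundance outside it had 7.96 and 7.63.

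The 50 genes differed widely in how much of them was found outside the testes. The smaller fold was that over the arcuate nucleus for 32 genes and that over the anterior pituitary for 18. Place 1 averaged 63.0 CPM in high plane pituitary and 261.7 CPM in high plane arcuate nucleus, and place 7 averaged 125 and 92.9 CPM. By contrast, 14 genes lay under 5 CPM in the median library of both other tissues (places 3 to 6, 8, 19, 20 and 36 to 42). Place 19, for example, averaged 983 CPM in high plane testes and 0.555 CPM in high plane pituitary. The tissue means of the arcuate nucleus on the high plane rest partly on C44, without which the mean of 21 of the 50 genes fell more than 2 times.

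**Figure D2:**
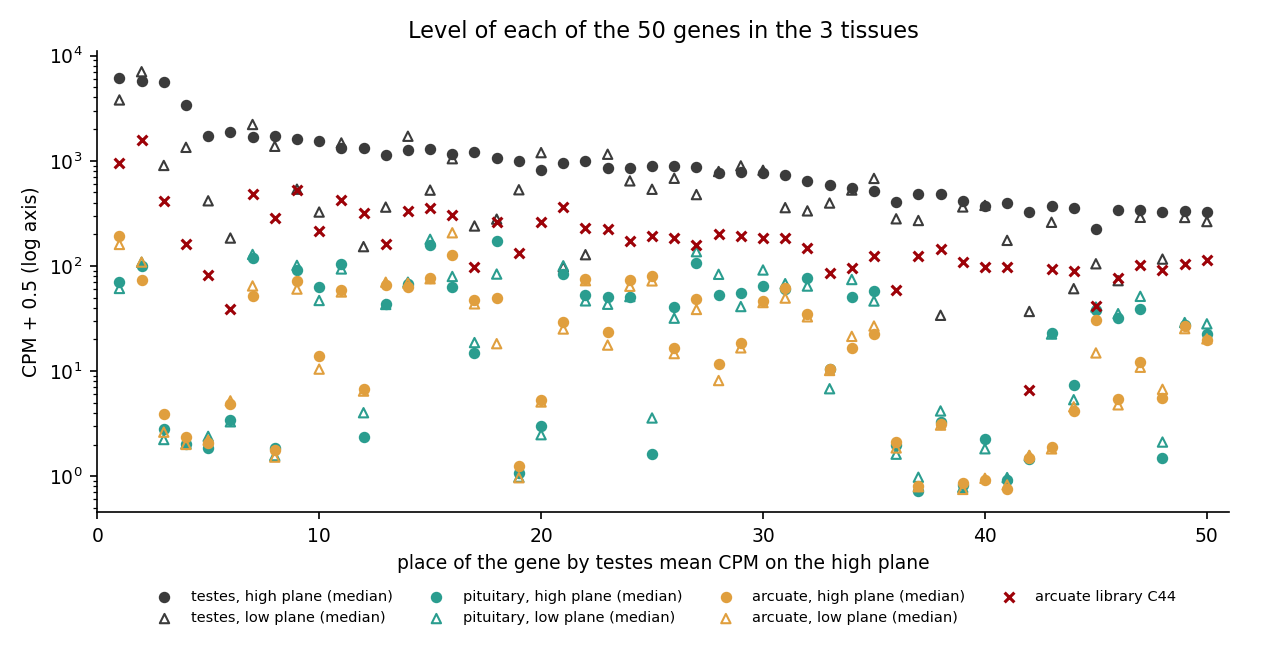
Median level of each of the 50 genes in the 3 tissues on both planes, as CPM with 0.5 added on a log axis, by place, with the level in arcuate library C44 as a cross. Testes medians lie above those of the other tissues on the high plane by the choice of the genes. Most crosses lie far above the arcuate medians, above all for many genes that were close to 0 there, and less so at places such as 16 and 45.

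The low plane libraries were not used to choose the genes, and there the testes were again higher. In edgeR's quasi-likelihood test across 15808 genes, 49 of the 50 genes were higher in low plane testes than in low plane anterior pituitary at a false discovery rate (FDR) below 0.05, against 30.4% of all genes tested. Of the 49, places 19, 37, 39 and 41 had too few pituitary reads for a test between diets in that tissue. They passed the filter of this test through the testes. Over the arcuate nucleus all 50 were higher, against 32.1% of all genes. Among these, places 37, 39, 40 and 41 had too few reads in the arcuate nucleus for a test between diets there. They entered this test through the testes, the tissue in which they were chosen to be high. So did place 19, which held 0.0 to 1.14 CPM in the low plane arcuate libraries. It could be tested between diets there only with C44, a high plane library. The median log2 difference between tissues was 3.97 over the pituitary and 4.99 over the arcuate nucleus. The exception over the pituitary was place 45, with a log2 difference of 0.89 and an FDR of 0.326, a gene whose low plane testes libraries ran from 12.4 CPM in B2 to 882 CPM in B26. The smallest difference over the arcuate nucleus was 2.43, at place 16, and the largest was 10.02, at place 8. Place 8 held only 0.316 to 3.18 CPM in the low plane arcuate libraries.

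The fold condition was also applied to the low plane, where the count can only be 50 or fewer, since all 50 met it on the high plane by choice. With low plane means in place of high plane means, 35 of the 50 genes (70.0%) reached 8 times both other tissues, against 1.8% of all 24616 genes (443 genes, where 333 met it on the high plane), and 33 of the 50 were among the 50 highest of that ranking. Place 15 was at 4.78 times, place 18 at 4.91 times and place 27 at 2.92 times on the low plane.

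Libraries of 1 diet varied more on the low plane. The coefficient of variation over testes libraries had a median of 30.1% on the high plane (range 11.3% to 90.01%) and 51.8% on the low plane (range 14.99% to 161%). It was larger on the low plane for 45 of the 50 genes, and the share of all genes for which it was larger was not counted. Among all genes at or above the level of place 50 the medians were 23.2% over 446 genes on the high plane and 27.7% over 465 genes on the low plane. The steadiest gene was place 11, with a high plane range of 1135 to 1595 CPM and a low plane range of 1118 to 1868 CPM. The least steady on the low plane was place 6, which ran from 58.8 CPM in B20 to 2256 CPM in B15.

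The diets were compared in the testes to ask what the plane of nutrition changed in the tissue. In edgeR's quasi-likelihood test of 10 high and 8 low plane libraries, with Benjamini-Hochberg adjustment over all 15310 genes tested, 6 of the 50 genes were lower on the low plane at an FDR below 0.05. That is 12% of the 50 genes, against 2.16% of all genes tested that were lower. None of the 50 was called higher, against 4.75% of all genes tested. The 9 genes with a log2 fold change above 0 had FDR values of 0.191 or above and 0 of them an unadjusted p under 0.05, and limma voom with quality weights, which called 35.7% of all genes higher, called 3 of the 50. The log2 fold change was below 0 for 41 of the 50 genes, against 50.7% of all genes, with a median of -0.72 over the 50 genes and -0.01 over all genes. Since the genes were picked on high plane levels, the count and the median lean towards lower values on the low plane by an amount that was not tested. Every one of the 50 genes had low plane libraries that overlapped the high plane ones, as did nearly all genes, of which 0.0457% had every low plane library below every high plane library.

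Place 1, ENSBTAG00000010899, was the most abundant gene that fell. Its level on the high plane was 4714 CPM in B42, 5232 in B30, 5577 in A48, 5694 in B54, 5740 in B17, 6596 in B49, 6782 in B5, 6788 in B38, 8676 in B32 and 8758 in B12. On the low plane it was 2097 CPM in B2, 2571 in B7, 3417 in B21, 3773 in B20, 3806 in B50, 4251 in B15, 4764 in B26 and 5583 in B31. Below the lowest high plane library lay 6 of the 8 low plane libraries, and all 8 lay below the high plane median. The means were 6456 ± 1369 CPM (SD, n = 10) and 3783 ± 1126 CPM (SD, n = 8), with a log2 fold change of -0.83 (SE 0.179) and an edgeR FDR of 0.0206. The gene kept an FDR below 0.05 when any of the 18 libraries was left out, up to 0.0499.

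Place 3, ENSBTAG00000025775, fell by 1.85 on the log2 scale (SE 0.455, edgeR FDR 0.0279). Its high plane libraries ran from 1598 CPM in B42 and 4332 CPM in B30 to 9805 CPM in B12. Its low plane libraries held 407 CPM in B21, 538 in B2, 631 in B20, 855 in B26, 950 in B15, 1716 in B50, 3098 in B7 and 5182 in B31. The 3 low plane libraries with a score above 4 were the 3 highest of that diet, and B42 was the lowest of the other. The call was lost in 9 of the 18 fits that left out a library, with an FDR of up to 0.0673.

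The other 4 genes that fell were less abundant. Place 13 had high plane libraries from 565 to 2295 CPM (median 1132) and low plane libraries from 154 to 864 CPM (median 362), and fell by 1.72 on the log2 scale (SE 0.328, edgeR FDR 0.0180). Place 17 ran from 263 to 2289 CPM (median 1215) on the high and from 123 to 855 CPM (median 239) on the low plane, a fall of 1.87 (SE 0.451, edgeR FDR 0.0272). Both had 8 of 8 low plane libraries below the high plane median.

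Place 19 ran from 577 to 1476 CPM (median 1002) on the high and from 306 to 861 CPM (median 530) on the low plane, and its log2 fold change was -0.89 (SE 0.193, edgeR FDR 0.0206). Place 33 ran from 474 to 898 CPM (median 591) on the high and from 207 to 485 CPM (median 396) on the low plane, and changed by -0.83 on the log2 scale (SE 0.153, edgeR FDR 0.0180). Libraries of 1 diet lay closer together at places 19 and 33 than at places 13 and 17, and the fall was smaller. Places 1, 13 and 33 were called in all 18 fits that left out a library, place 19 in 15 and place 17 in 12. Leaving out a library moved the count of called genes from 6 to between 3 and 16. It was 3 without B2, B20 or B21, where 0.324%, 0.415% and 0.408% of all genes were called lower. It was 10 without B7, where 5.14% of all genes were, and 10 without B15, where 1.5% were. It was 16 without B42, where all 6 genes were again called and 8.03% of all genes were called lower.

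**Figure D3:**
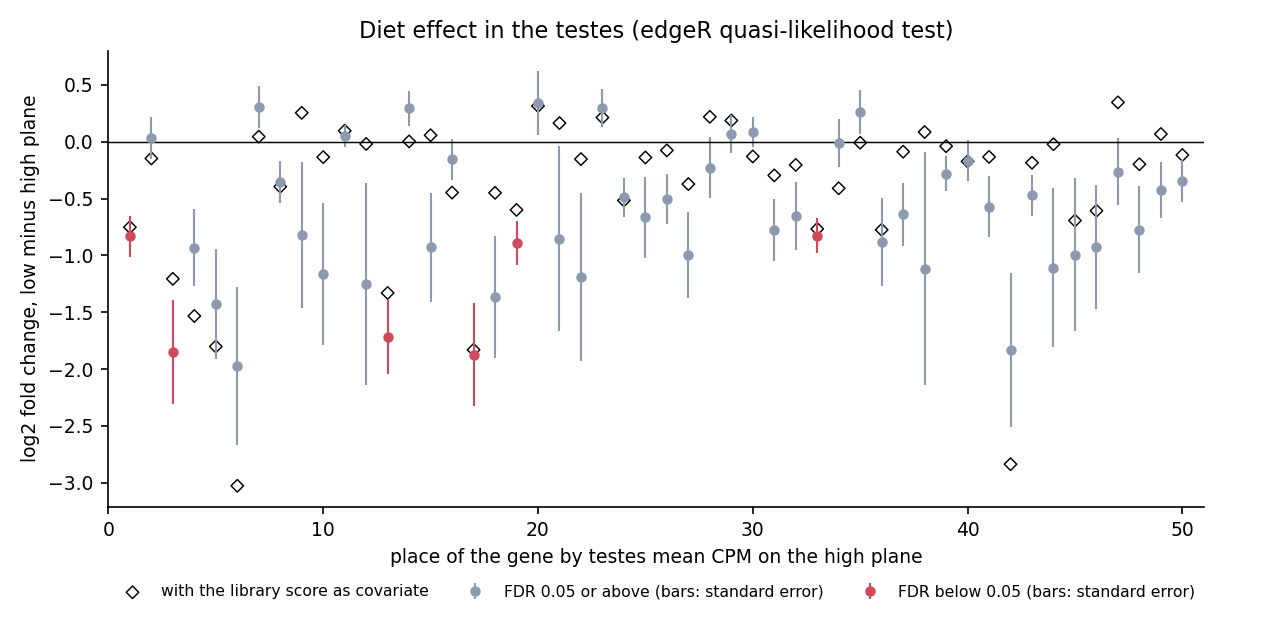
Log2 fold change between diets in the testes (low minus high plane) for each of the 50 genes by place, as circles with standard errors, red where the edgeR FDR is below 0.05. Open diamonds give the value with the library score as a covariate, and 41 circles but 37 diamonds lie below 0.

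More negative values than that of place 1 failed the test in genes whose libraries varied more. The log2 fold change was below -1 for 12 genes, 9 of which were not called. Place 6 had the most negative value, -1.97 (SE 0.694, edgeR FDR 0.0835), with 309 to 3457 CPM on the high plane and 58.8 to 515 CPM on the low plane apart from B15 at 2256 CPM. Place 42 had -1.83 (SE 0.681, edgeR FDR 0.0963), with 75.4 to 792 CPM on the high plane and 14.6 to 166 CPM on the low plane apart from B15 at 498 CPM. Place 5, at -1.43 (edgeR FDR 0.0733), and place 4, at -0.93 (edgeR FDR 0.0895), had B15 as their highest low plane library too, at 2319 and 4442 CPM.

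B15 was also the highest low plane library at place 17, with 855 CPM. Of the high plane libraries, B49 was the highest at places 4, 5, 17 and 42, and B12 at place 6. B54 was the lowest high plane library at places 5, 6, 17 and 42, but not at place 4, where B17 was. Of the extreme libraries, only B15 on the low plane was common to places 4, 5, 6, 17 and 42, and these genes were chosen for mention after their values were seen.

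The genes at the other end did not pass the test in either direction. Place 2, nearly as abundant as place 1, ran from 4826 to 7803 CPM on the high and from 3514 to 8256 CPM on the low plane, at a log2 fold change of 0.03 (SE 0.187, edgeR FDR 0.898). The most positive values were 0.34 at place 20, 0.31 at place 7, 0.30 at place 23, 0.29 at place 14 and 0.26 at place 35. At place 7, 4 of the 8 low plane libraries lay above the highest high plane library, and at place 14, 5 of the 8 did. Place 8 had -0.36 (edgeR FDR 0.190), place 9 had -0.82 (edgeR FDR 0.338) and place 10 had -1.17 (edgeR FDR 0.201).

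Library by library, 17 of the 50 genes (34%) separated the testes libraries by score, against 25.4% of all genes tested. In these genes the 6 libraries with a score below 2 (B42 and 5 of the low plane) were all below the other 12. Of the other 12, 9 were of the high and 3 of the low plane, so this split followed the diets in part. Place 38 was the widest, with 4.0 CPM in B42 and 1.24 to 61.6 CPM in the 5 low plane libraries of low score, whereas the other high plane libraries held 261 to 872 CPM, B7 held 292, B50 held 553 and B31 held 909 CPM. Its highest library was 734 times its lowest. Place 12 followed the same order, with 21.4 CPM in B42, 11.9 to 251 CPM in the 5 low plane libraries of low score and 953 to 2452 CPM in the other high plane libraries, a 207-fold range.

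At place 9, B42 held 108 CPM against 1244 to 2527 CPM in the other 9 high plane libraries, and at place 10 it held 103 CPM against 1055 to 1904 CPM. B31, B50 and B7 held 2545, 2117 and 1512 CPM at place 9, within or just above the range of the high plane. Of the 17 genes, places 3 and 19 were among the 6 that were called.

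**Figure D4:**
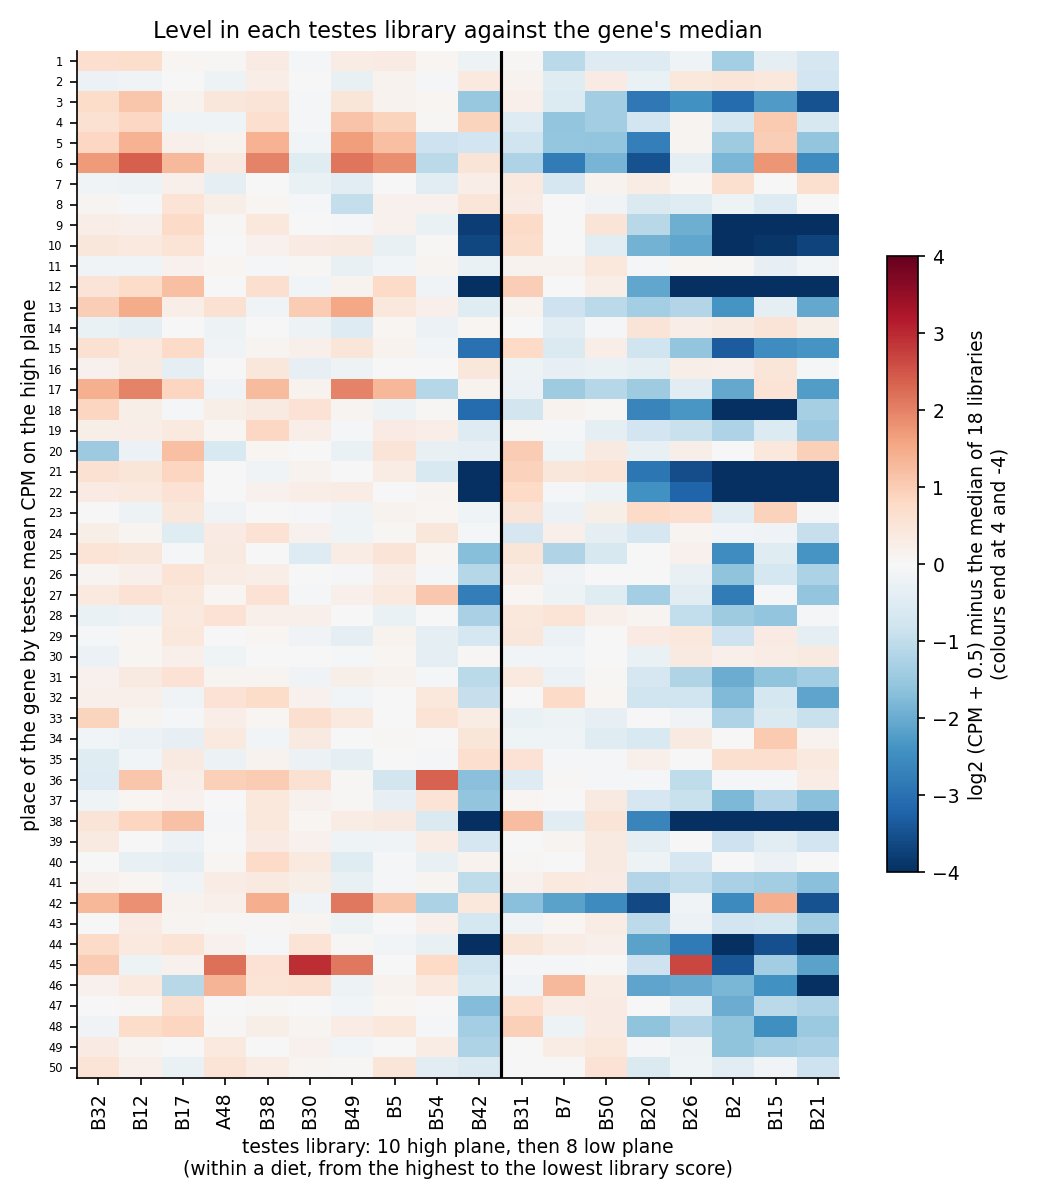
Level of each of the 50 genes in each testes library, as log2 of CPM with 0.5 added minus the median of the gene over 18 libraries (red higher, blue lower, colours ending at 4 and -4), with the 10 high plane libraries left of the line and the 8 low plane libraries right of it, each ordered by library score. Dark blue cells at places such as 9, 10, 12, 21, 22, 38 and 44 fall in B42 as well as in low plane libraries, and places 4, 5, 6, 17 and 42 have B15 as their highest low plane library.

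With the library score as a covariate in the testes test, the median log2 fold change of the 50 genes moved from -0.72 to -0.15, and 27 genes lay within 0.25 of 0, against 8 without it. In that fit 6 genes were again lower at an edgeR FDR below 0.05, against 4.37% of all genes tested, and 5 of them were the same as before. Place 4 came in, at -1.53 (edgeR FDR 0.0178), and place 17 went out, at -1.83 (edgeR FDR 0.0534). Places 1, 3, 13, 19 and 33 had -0.75, -1.21, -1.33, -0.60 and -0.77. For the 17 genes that separated by score, the median moved from -0.89 to -0.14.

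In the 12 libraries with a score above 4 alone (9 high and 3 low plane), the median over the 50 genes was -0.09 and 0 of 15935 genes passed the edgeR test. At an unadjusted p under 0.05 were 17 of the 50 genes, and 2546 of all 15935. There the values of places 1, 3, 13, 17, 19 and 33 were -0.83, -0.98, -1.39, -2.07, -0.53 and -0.71. Places 6 and 42 had -3.43 and -3.26. Where the covariate was instead the log2 of the library total, 0 of the 50 genes and 2 of all 15310 genes (0.0131%) were called lower. An unadjusted p under 0.05 was found for 10 of the 50 and 1575 of all genes, and the median over the 50 was -0.44. The values of places 1, 3, 13, 17, 19 and 33 in that fit were -0.86, -1.44, -1.71, -2.19, -0.67 and -0.83, at edgeR FDR values of 0.167 to 0.242. Low plane libraries of low score held 8586953 to 15338551 reads and those of high score 14472180 to 22903487. B42, the high plane library of low score, held 19998408 reads. Depth, score and diet thus moved together only in part, and their parts in the diet difference were not tested beyond these fits.

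In the anterior pituitary the 50 genes took 0.195% ± 0.0586 (SD, n = 9) of the reads on the high and 0.224% ± 0.0563 (SD, n = 10) on the low plane. The libraries of low score were unequally spread there too. They held 0.0948% in A57, 0.121% in A18 and 0.171% in A51 on the high plane, and 0.135% in A10 and 0.208% in A47 on the low plane. A57 was the lowest high plane pituitary library for 25 of the 50 genes, a count that was not made over all genes. Of the 50 genes, 46 had enough reads to be tested between diets, and places 19, 37, 39 and 41 did not. In edgeR's test 0 of the 46 passed, with a smallest FDR of 0.255, where 0.493% of all genes were lower and 0.0694% higher. At an unadjusted p under 0.05 were 5 of the 46, and 1070 of all 14411 genes. The log2 fold change was above 0 for 29 genes and below 0 for 17, where 47.9% of all genes were below 0. Its median was 0.18 over the 46 and 0.02 over all genes, and it ran from -0.75 at place 40 to 1.13 at place 25. DESeq2 and edgeR's exact test called 0 of the 46 too, limma voom with quality weights called 7 lower (3.98% of all genes), and edgeR with the library score as a covariate called 7 lower (4.05% of all genes) and 3 higher (4.95% of all genes).

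In the arcuate nucleus the share was 0.262% ± 0.311 (SD, n = 10) on the high and 0.162% ± 0.0446 (SD, n = 10) on the low plane. C44 alone held 1.14% (95% Wilson interval 1.140% to 1.148%), and without it the high plane mean was 0.164% ± 0.0306 (SD, n = 9). Again 46 genes were tested and 0 passed in edgeR's test, as 0.0% of all 14757 genes did in either direction. At an unadjusted p under 0.05 were 17 of the 46, and 1464 of all 14757 genes. DESeq2, edgeR's exact test and limma voom also called 0 of the 46, whereas 1 edgeR fit over the 6 groups of all tissues, C44 included, called 10 of 50 lower (0.571% of all genes) at a smallest FDR of 0.00106. The log2 fold change was below 0 for 41 of the 46, against 50.9% of all genes, and below -1 for 20. Its median was -0.78 over the 46 and -0.01 over all genes. Without C44 the median was -0.05 over 45 tested genes, with 23 below and 22 above 0 and 0 called, where 49.4% of all genes were below 0. At an unadjusted p under 0.05 were 3 of the 45, and 1164 of all 14782 genes.

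C44 held most of the 50 genes far above the other arcuate libraries. For the 14 genes under 5 CPM elsewhere, the level in C44 had a median of 15.2% of the testes high plane mean, against 1.25% in C22 and 0.0219% to 0.287% in the other 37 libraries of the arcuate nucleus and anterior pituitary. Place 8, for example, had 286 CPM in C44, 21.1 CPM in C22 and 0.116 to 3.18 CPM in the other 18 arcuate libraries. The level in C44 above the median of the other 19 arcuate libraries was then set against each testes library, gene by gene. Against B50, a low plane testes library, it was 20.5% in the median gene, with quartiles of 19.6% and 21.6% and a range of 16.1% to 25.9% over all 50 genes.

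The ratio varied far more against every other testes library. The SD of its log2 was 0.146 against B50, whereas it was 0.469 against B7, the next, and up to 2.37 in the other 17 libraries, with a median of 1.07. Against the mean of the high plane testes libraries the ratio had a median of 20.2% and a range of 1.38% to 35.1%. At place 42, where B50 held 31.6 CPM and the high plane mean was 371 CPM, C44 was above the arcuate median by 16.1% of B50 and 1.38% of the high plane mean. The 50 genes of C44 thus followed 1 testes library of the other diet, and the source of its reads was not tested.

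**Figure D5:**
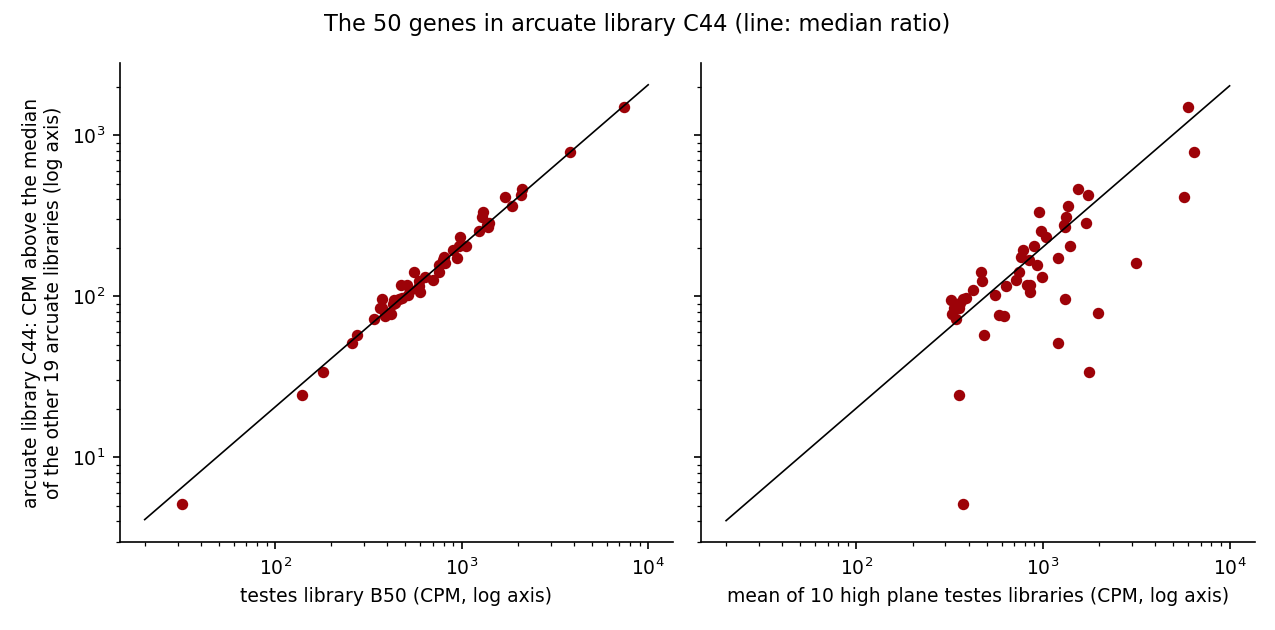
Level of each of the 50 genes in arcuate library C44 above the median of the other 19 arcuate libraries, against the level in testes library B50 (left) and against the mean of the 10 high plane testes libraries (right), both axes in CPM on log scales, with a line at the median ratio. Points lie close to the line at 20.5% on the left and spread from 1.38% to 35.1% on the right.

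The diet effect was compared between tissues in 1 edgeR fit over all 57 libraries. That fit treated the libraries as independent, although by the paper the tissues came from the same calves. Against the anterior pituitary, 2 of the 50 genes had a more negative effect in the testes, where 0.825% of 16476 genes did, and 0 a more positive one, where 2.57% did. At place 13 the difference of the log2 fold changes was -2.45 (SE 0.516, edgeR FDR 0.00359), and at place 17 it was -2.17 (SE 0.432, edgeR FDR 0.00217). Place 13 in the pituitary ran from 7.40 to 61.2 CPM on the high and from 18.7 to 228 CPM on the low plane. Its lowest high plane values were 7.40 in A57, 16.7 in A18 and 18.1 in A51, the high plane libraries of low score. The other high plane libraries held 34.6 CPM or more. On the low plane A52 held 228 CPM and A35 held 103 CPM, while A10 and A47, of low score, held 18.7 and 27.9 CPM. The remaining ones held 33.2 to 58.8 CPM. The log2 fold change of 0.74 at place 13 did not pass the test there (edgeR FDR 0.848).

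Against the arcuate nucleus, places 8, 39, 40 and 41 had a more positive effect in the testes, at differences of 4.26, 4.79, 4.19 and 4.21 (edgeR FDR 0.0319, 0.0216, 0.0266 and 0.0443), where 0.522% of all genes did, and 0 a more negative one, where 0.212% did. Of the 4, places 39, 40 and 41 had too few arcuate reads for a test between diets in that tissue and entered the fit through the testes. The differences rested on C44, in which the 4 genes had 286, 109, 98.0 and 96.9 CPM. Without C44 the differences were -0.07, -0.12, -0.40 and -0.84, 0 of the 50 genes were called by edgeR, and 0.00607% of all genes were called higher. An unadjusted p under 0.05 was found there for 10 of the 50 and 1129 of all 16469 genes. Against the pituitary 2 genes were called lower without C44 too, where 0.85% of all genes were.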

How the data were processed

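Per the labels, total RNA from frozen tissue was made into single-end TruSeq mRNA libraries, and the submitters' processing notes name CASAVA 1.4, STAR, HTSeq and edgeR. The genome build, annotation release and strand setting are not given in the sources used here. The authors deposited, for each library, whole-number counts of reads per Ensembl gene without normalization, and removed 3 libraries with few reads before that.

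CPM was computed on library totals. The 50 genes and all lists were chosen with earlier results of these data known, and lists of cell type and pathway symbols were not used, because no identifier could be matched to them. Named genes are places 1 to 10, those called in the testes diet test, the 5 largest and 5 smallest log2 fold changes, places 49 and 50 and the 3 genes next below; others are named as extremes. Diets were compared within tissues, and low plane tissues with each other, with edgeR 4.0.16 in R 4.3.3 (filterByExpr, TMM factors, quasi-likelihood F-test, FDR below 0.05 over all genes tested). The main type of fit was also run on simulated data with independent counts. Those data held no libraries of low score and none like C44, so the run does not cover their effect. DESeq2 1.42.0, limma 3.58.1 voom, edgeR's exact test, other filters and scalings and covariates were alternatives. The library score is the mean log2 CPM of the 200 genes with the largest summed slopes on dimension 1 of a multidimensional scaling in the other 2 tissues, without the 50 genes, with that dimension oriented alike in all tissues. The alternatives without C44 and in the libraries with a score above 4 were chosen after seeing the data. Labels do not say which libraries share a calf, and p-values measure the spread between libraries. In fits across tissues, libraries of the same calf were treated as independent, so those p-values and FDR values ignore the sharing. Total counts of 898979 to 32009433 per library limit precision mostly for genes near 0.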

Additional observations from a re-analysis of the deposited data

Results flagged for a closer look

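Each of the 46 sets of 8 to 10 libraries of 1 tissue and diet was searched for a library far from the others, and 8 such values were found. A rate by chance of about 1 in 20 sets would hold for independent sets. These sets share the same libraries, so that the 8 values cannot be set against that rate. In the testes on the low plane, B15 stood above the other 7 libraries at place 4 (4442 CPM), place 6 (2256 CPM) and place 42 (498.4 CPM). On the high plane, B42 stood below the other 9 libraries at place 9 (108.5 CPM) and place 10 (103.3 CPM), and in library score (-0.7002). B17 stood above the others at place 23, with 1214 CPM. In the arcuate nucleus on the high plane, C44 stood out by its share of reads on the 50 genes, 1.144%.

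By edgeR's test of the difference, the diet effects of 2 tissues differed at an FDR below 0.05 for 6 genes. Testes minus anterior pituitary gave -2.447 at place 13 and -2.167 at place 17 on the log2 scale. Testes minus arcuate nucleus gave 4.262 at place 8, 4.785 at place 39, 4.187 at place 40 and 4.206 at place 41, and these 4 were not called without C44. Places 39, 40 and 41 had too few reads in the arcuate nucleus to be tested there alone, so their differences rest on arcuate counts near 0 and on C44.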

How the results depend on the processing

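No paired analysis was possible because the numbers in the titles are not shared between groups and the labels do not tie libraries to calves. Low plane libraries in place of high plane ones kept 33 of the 50 genes, TMM-scaled CPM kept 43, and leaving out B42 or C44, or taking medians, kept 48 each. In the testes, the 6 genes called lower became 11 with DESeq2 (4.51% of all genes lower), 36 lower and 3 higher with limma voom (37% and 35.7% of all genes), 0 with the log2 total count as a covariate and 0 in the 12 libraries with a score above 4. Leaving out each library gave 3 to 16. In the pituitary, the 0 called became 7 lower and 3 higher with the library score (4.05% and 4.95% of all genes) and 7 lower with voom (3.98%). In the arcuate nucleus, the 0 called became 10 lower in 1 fit over the 6 groups (0.571% of all genes). The 4 genes with a higher diet effect in the testes than in the arcuate nucleus became 7 on library totals and 0 without C44. Signs turned at 10 of the 50 genes with the score (values of -0.15 to 0.35), at 13 in the 12 libraries (-0.13 to 0.32), at 3 with the log2 total and at 1 without B42. Among the named genes these were place 2 (-0.1473 with the score, -0.01163 in the 12 libraries, and -0.03428 to 0.1267 when a library was left out, below 0 without A48, B2, B15 or B26), place 9 (0.2539 with the score, 0.1734 in the 12 libraries), place 14 (-0.07589 in the 12 libraries) and place 35 (-0.0091 with the score). On library totals without TMM factors, 2020 of all genes in the testes were higher and 311 lower between diets, against 727 and 330 with them, and the median of all genes over the pituitary on the low plane moved from 0.03 to 0.29 and over the arcuate nucleus from -0.02 to 0.12, while 49 and 50 of the 50 genes were called higher. The causes of these changes were not tested. Depth limits genes near 0 outside the testes, of which 4 could not be tested in each tissue.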
